A study of Homo sapiens with 20 samples.

Results

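The response of T-ALL1 cells to the NEMO-binding domain (NBD) peptide was measured on 4 of the 20 Affymetrix arrays of a study of cell lines from T cell acute lymphoblastic leukaemia (T-ALL), a cancer of T cell precursors. The members are the arrays whose titles name T-ALL1: 2 from cells given the NBD peptide and 2 from cells given a control peptide, both for 16 h. T-ALL1 is an established T-ALL line, which its label calls TALL-1, and the labels name no genetic change made to it. The other 16 arrays came from CEM, DND41, HPB-ALL and KOPT-K, with 2 arrays per line and peptide. The dose of the peptide is 100 µM in one label field and 100 mM in others, and it is not used below. No label says if the 2 arrays of a group stem from different cultures, so the spread behind each p-value is that between arrays and could be technical.

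NF-kB transcription factors are held in the cytoplasm by IkB proteins until the IkB kinase (IKK) marks those proteins for destruction. IKK consists of the catalytic subunits IKKα and IKKβ and the regulatory subunit NEMO, and the NBD peptide mimics the stretch of the catalytic subunits that binds NEMO. In T-ALL, signalling through NOTCH1 is commonly active, and NF-kB is among the pathways it has been linked to. The comparison addresses which transcripts differ between cells given the NBD peptide and cells given the control peptide in T-ALL1. The arrays do not measure IKK assembly.

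The 4 arrays carried the transcripts of T cells. All 15 T cell markers on the array, which include CD3D, CD7 and LCK, lay at or above the median of all deposited values on each of the 4 arrays. Of the B cell markers 2 of 9 did so, of the myeloid markers 2 of 9 and of the fibroblast and epithelial markers 2 of 11. MS4A1, a defining B cell marker, lay at log2 values of 3.79 to 3.94, and LYZ of myeloid cells at 3.07 to 3.51, all below that median of 5. The summed intensity of the B cell markers was 277 to 279 with NBD and 249 to 303 with Control, that of the myeloid markers 242 to 248 with NBD and 225 to 231 with Control, and that of the fibroblast and epithelial markers 390 to 431 with NBD and 368 to 411 with Control. The T cell markers summed to 14300 to 15400 with NBD and to 17400 to 18200 with Control, and CD3D was the marker that passed the test. In bulk RNA, fewer cells of a type and less RNA per cell cannot be told apart.

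The control probe sets set the T-ALL1 Control arrays apart. Actin has control probe sets at its 3' and 5' ends, and the log2 difference between them grows as RNA is shorter or its copying stops sooner. That difference was 1.07 and 0.99 on the NBD arrays, against 3.16 and 2.05 on the Control arrays. The means were 1.03 ± 0.05 with NBD and 2.61 ± 0.78 with Control (SD, n = 2 each), a difference of -1.58 (exact two-sided permutation p = 0.333, the smallest that 6 assignments of 4 arrays allow). The groups did not overlap, and both Control arrays exceeded the other 16 arrays, which ran from 0.73 to 1.81. The 3' actin set hardly varied, at 13.52 and 13.56 with NBD and 13.76 and 13.63 with Control. The 5' set did, at 12.45 and 12.57 with NBD and 10.60 and 11.57 with Control.

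Control 1 stood further apart than Control 2. Its GAPDH 3' minus 5' difference was 0.77, against 0.12 and 0.20 on the NBD arrays, 0.21 on Control 2 and 0.10 to 0.40 on the other 16 arrays. The 5' set of 18S ribosomal RNA, which reads an RNA without a poly(A) tail that is carried along in the sample, was 12.87 and 12.09 with NBD, against 7.56 on Control 1 and 12.61 on Control 2. It was 10.55 to 13.21 on the arrays of the other lines. The pooled SD between the arrays of a group was 0.129 log2 units for T-ALL1 NBD and 0.226 for T-ALL1 Control, and 0.11 to 0.148 for the other groups. Across genes, the array closest to Control 2 was NBD 2 (Pearson r = 0.9961) and not Control 1 (r = 0.9917). The Control arrays differed by over 1 log2 unit in 90 genes and the NBD arrays in 5.

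**Figure D1:**
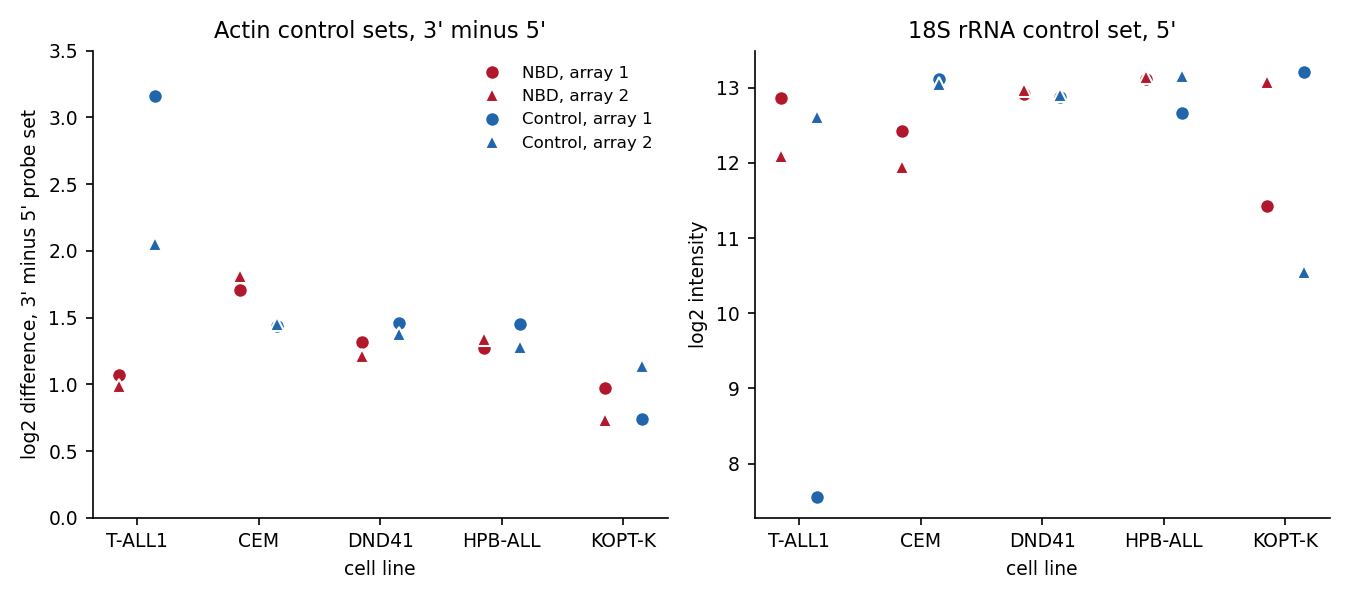
Control probe sets on each array, with NBD in red and Control in blue, array 1 as a circle and array 2 as a triangle. The left panel gives actin, as the 3' set minus the 5' set in log2 units, and the right panel the log2 intensity of the 5' 18S rRNA set. The T-ALL1 Control arrays lie at 3.16 and 2.05 on the left, above all other arrays, and T-ALL1 Control 1 at 7.56 on the right, below all others.

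Of 13787 genes tested, 158 (1.15%) were higher and 317 (2.3%) lower with NBD than with Control in T-ALL1. These genes passed 0.05 in limma with Benjamini-Hochberg adjustment, in a fit to all 20 arrays that shares the spread over the 10 groups, and are called changed here, 475 (3.45%) in all. Past 1.5-fold were 44 of the higher and 123 of the lower genes, and past 2-fold 3 and 38. With the 4 T-ALL1 arrays alone, limma called 0 genes in either direction (lowest adjusted p = 0.0867), although 441 genes were higher and 733 lower at an unadjusted p under 0.05. The calls therefore use a spread taken largely from the other lines. In all of the 475 called genes both NBD arrays lay on the same side of both Control arrays. Over all genes tested, that held for 18.7% in the higher and 24% in the lower direction.

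Without Control 1, 45 of the higher genes (0.326% of those tested) and 66 of the lower genes (0.479%) were still called in the same direction, 111 in all. The other 364, 113 higher and 251 lower, were not. In 312 of those 364 genes Control 1 lay farther from the NBD arrays than Control 2 did, and in 49 of the 111 that held. The split was itself made by leaving out Control 1, which favours such a contrast, so the counts are descriptive only. A further 52 higher and 12 lower genes were called only without Control 1. Without any 1 of the 4 T-ALL1 arrays in turn, 13 of the higher and 22 of the lower genes were called each time. With Control 1 left out, Control 2 stands alone for its group and is assumed to vary like the other groups. Its actin difference of 2.05 still lay above both NBD arrays, so leaving out Control 1 does not bring the groups to the same value, and the part of RNA integrity in the 111 calls cannot be told apart from that of the peptide.

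Modelling the quality of the arrays left few of the 475 calls. With the actin 3' minus 5' difference of each array as a covariate, 7 of the higher and 5 of the lower genes were called in the same direction. The 7 were JUN, TFAP2C, CDT1, GINS2, USP18, ZSCAN16-AS1 and ABHD5, and the 5 were ID3, HOMER1, ABLIM1, TRAF3IP3 and FARP2. HES1 then gave -1.21 (limma adjusted p = 0.196) and ID1 -1.36 (0.105). Within groups, the actin difference varied most between T-ALL1 Control 1 and Control 2, at 3.16 and 2.05. The covariate fit therefore depends largely on which of those arrays lay nearer the NBD arrays, and it cannot separate RNA integrity from the peptide. With array weights, which were 1.22 for the NBD pair and 0.269 for the Control pair of T-ALL1, 2 higher and 11 lower genes were called. These were JUN and RUBCNL, and ID3, ID1, HES1, SASH3, HOMER1, ZNF322, ZNF467, TRAF3IP3, ABLIM1, DNAJC15 and RNF145. JUN, ID3, HOMER1, ABLIM1 and TRAF3IP3 passed in both and also held without Control 1. Other probe sets of JUN gave 1.01 to 1.08 and passed. Those of TRAF3IP3 gave -0.51, which passed, and -0.89 and 0.19, which did not. Other sets of HOMER1 (-0.09) and ABLIM1 (-0.08) did not pass, nor did those of ABHD5 (-0.09 to 0.08), FARP2 (-0.06 to 0.24) and GINS2 (0.16 and 0.23).

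**Figure D2:**
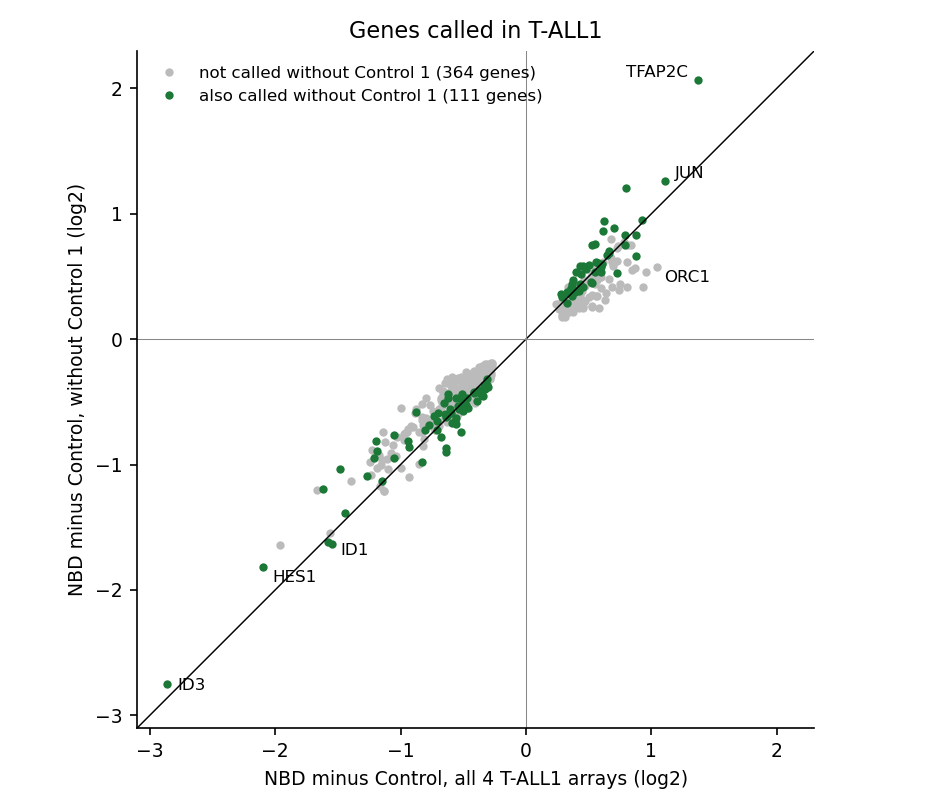
Change in T-ALL1 (NBD minus Control, log2) of the 475 called genes with all 4 arrays on the horizontal axis and without Control 1 on the vertical axis, with the line of equal change. Green points are the 111 genes also called without Control 1 and grey points the 364 others. Many grey points lie between the line and 0, such as ORC1 at 1.04 with all arrays and 0.57 without Control 1.

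Regulators of transcription that respond to BMP or Notch signals, ID3 and HES1, showed the 2 largest decreases of all called genes. ID3, which binds E proteins such as TCF3 and keeps them off DNA, had log2 values of 6.37 and 6.69 with NBD, against 9.50 and 9.28 with Control. It fell by 2.86 ± 0.11, or 7.27-fold (SE with 2 arrays per group and the spread shared over the 10 groups, adjusted p = 1.07e-08 by limma). Without Control 1 it fell by 2.75. ID1, a close relative with the same role, had 6.59 and 6.67 with NBD, against 8.18 and 8.25 with Control, and fell by 1.58 ± 0.15 (2.99-fold, limma adjusted p = 0.000234). Both NBD arrays lay below both Control arrays for each gene, as for all genes called lower and 24% of all genes tested. Here and below, ± on a change is that SE from the shared spread. T-ALL1 Control varied most of all groups (pooled SD 0.226, beside 0.11 to 0.148 for the others), so the SEs may be too small for this line. Of the 12 tested genes of a list of ID and E proteins and their partners, 4 were lower and 0 higher, beside 2.3% of all genes lower, with a median change of -0.13 beside -0.01 over all genes. The others were SMAD6, an inhibitor of BMP signalling, at -0.82 (limma adjusted p = 0.0131, 0.0597 without Control 1), and TCF3 at -0.29 (0.0272, 0.1 without Control 1). SMAD6 had 3 other probe sets, which gave 0.17 to 0.41 and did not pass. ID2 and ID4 changed by 0.24 and 0.10 and did not pass.

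HES1, a repressor whose gene is switched on directly by Notch, had log2 values of 6.0 and 6.54 with NBD, against 8.65 and 8.09 with Control. It fell by 2.10 ± 0.22 (4.29-fold, limma adjusted p = 0.000509), and fell by 1.82 without Control 1 (0.00691). A second HES1 probe set gave -1.69 (limma adjusted p = 0.000111), and another, at a mean of 3.49, gave 0.01. The 250 bases before the HES1 start site (GRCh38.p14, chr3:194135898-194136147, plus strand) are shown because they hold a pair of the 6-letter core bound by RBPJ, the DNA-binding partner of Notch. The first base of each copy lies 84 and 70 bases before the start. Capitals mark TGGGAA, searched on both strands, and the sequence is from RefSeq.
HES1: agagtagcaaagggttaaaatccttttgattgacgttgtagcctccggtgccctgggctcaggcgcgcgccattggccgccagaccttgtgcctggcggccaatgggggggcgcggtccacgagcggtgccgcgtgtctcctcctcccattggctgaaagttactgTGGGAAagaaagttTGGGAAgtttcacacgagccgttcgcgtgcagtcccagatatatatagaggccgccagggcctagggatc
The core occurs in 21.1% of 27305 promoter windows of this length, in 19.6% of those of tested genes, and in 4 of the 19 Notch list members with a window, so its presence alone describes little.

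Of 22 Notch receptors and targets tested, 5 were lower and 0 higher, beside 2.3% of all genes lower, with a median change of -0.11. Besides HES1 these were NOTCH1, NOTCH3, LZTFL1 and CD300A, and all but CD300A held without Control 1. The receptor NOTCH1 had 8.91 and 8.98 with NBD, against 9.42 and 9.48 with Control (-0.51 ± 0.09, limma adjusted p = 0.0139). NOTCH3, another receptor of the family, had 7.33 and 7.54 with NBD, against 7.85 and 8.30 with Control (-0.64 ± 0.15, limma adjusted p = 0.0361). LZTFL1, a regulator of protein traffic to the cilium, had 5.41 and 5.54 with NBD, against 6.62 and 6.42 with Control (-1.05 ± 0.15, limma adjusted p = 0.00384). In each of the 3 genes both NBD arrays lay below both Control arrays, as in all genes called lower and in 24% of all genes tested. Other probe sets of NOTCH1 (0.05), NOTCH3 (0.34) and LZTFL1 (-0.93, -0.05 and -0.14) did not pass. CD300A, an inhibitory receptor, fell by 0.50 (limma adjusted p = 0.0448, 0.191 without Control 1). Several classical targets did not pass: HES4 changed by -0.74 (0.0668), HEY1 by -0.65 (0.1), DTX1 by -0.32 and NRARP by 0.44. MYC, a target in many T-ALL lines, had 6.37 and 6.48 with NBD, against 6.88 and 6.04 with Control, so its NBD values lay between its Control values. MAML3, a coactivator of Notch, was also among the 111 genes, at 7.71 and 7.87 with NBD, against 8.65 and 8.41 with Control (-0.73 ± 0.11, limma adjusted p = 0.00581). Its other probe sets gave -0.05 and -0.06 and did not pass. Of the 22 list genes, 1 was called lower with array weights and 0 with the actin covariate, at medians of -0.11 and -0.1. Without single T-ALL1 arrays the median of the list ran from -0.27 to -0.05.

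Few genes of the pathway the peptide is aimed at were called. At the share of all genes called in either direction, 3.45%, lists this small would hold few calls, so the counts describe little. Of 11 feedback inhibitors of NF-kB, 0 were called, with a median of -0.01. NFKBIA, which encodes IkBα and is itself an NF-kB target, had 10.76 and 10.69 with NBD, against 10.62 and 10.81 with Control, a change of 0.01 ± 0.08 (limma adjusted p = 0.943). TNFAIP3 and CYLD, deubiquitinases that restrain IKK, changed by 0.20 ± 0.07 (0.121) and 0.04 ± 0.10 (0.874). Another TNFAIP3 probe set, at a mean of 7.34, gave 0.76 (limma adjusted p = 0.118) and did not pass. Other CYLD sets gave -0.29 to 0.11 and did not pass. Of 17 components of the pathway 0 were called with all arrays, and the IKK subunit genes IKBKB, CHUK and IKBKG changed by -0.27, 0.11 and 0.01. Without Control 1, TBK1, an IKK-related kinase, was called higher at 0.99 (limma adjusted p = 0.00931), while it gave 0.49 (0.235) with all arrays. Of 25 target genes 1 was higher and 1 lower, beside 1.15% and 2.3% of all genes, with a median of -0.06. CXCR4, the chemokine receptor that guides leukaemic T cells to bone marrow, had 10.84 and 11.08 with NBD, against 11.61 and 11.57 with Control. It fell by 0.63 ± 0.08 (limma adjusted p = 0.00193), and was called without each of the 4 arrays in turn, but its 2 other probe sets gave 0.36 and 0.24 and did not pass. CD83, a surface protein of activated lymphocytes, rose by 0.45 ± 0.11 (limma adjusted p = 0.0411, 0.159 without Control 1). BCL2A1, an apoptosis inhibitor induced by NF-kB, gave -0.58 (0.0711), and ICAM1, IRF1 and TNF gave 0.06, -0.13 and 0.21.

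Genes that load and fire replication origins were higher with NBD. Of 39 DNA replication genes tested, 16 were higher and 0 lower, beside 1.15% of all genes higher, and 7 of the 16 held without Control 1. The median change of the list was 0.25 with all arrays and 0.25 without Control 1, beside -0.01 over all genes, and 35 of the 39 changes lay above 0. CCNE1, the cyclin that with CDK2 drives entry into S phase, had 7.09 and 7.33 with NBD, against 6.59 and 6.51 with Control. It rose by 0.66 ± 0.09 (1.58-fold, limma adjusted p = 0.00193) and was called without each of the 4 arrays in turn. CDC6, which loads the MCM helicase at origins, had 8.60 and 8.51 with NBD, against 7.63 and 8.02 with Control (0.73 ± 0.11, limma adjusted p = 0.00581). A second CDC6 probe set gave 0.94 (limma adjusted p = 0.0237). CDT1, its partner in loading, had 7.67 and 7.62 with NBD, against 7.25 and 6.44 with Control. It rose by 0.80 ± 0.18 (limma adjusted p = 0.0347), and by 1.20 without Control 1 (0.000775), while another probe set of it gave 0.18 (0.723). The NBD arrays lay above the Control arrays in all 3 genes, as in all genes called higher and in 18.7% of all genes tested.

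MCM10, an origin firing factor, had 9.66 and 9.72 with NBD, against 9.13 and 9.15 with Control, and rose by 0.55 ± 0.07 (limma adjusted p = 0.00115). The helicase subunits and helpers CDC45 and GINS2 rose by 0.33 ± 0.07 (0.0212) and 0.43 ± 0.09 (0.0266), and DTL, which directs the destruction of CDT1, by 0.36 ± 0.07 (0.0138). These 4 genes held without Control 1. ORC1, a subunit of the origin recognition complex, showed the largest change of the list, with 7.01 and 7.27 with NBD, against 5.62 and 6.56 with Control (1.04 ± 0.23, limma adjusted p = 0.0315). Its value without Control 1 was 0.57 (0.176). The helicase subunits MCM2, MCM6 and MCM7 (0.29, 0.32 and 0.29), the clamp loader subunit RFC2 (0.42), the polymerase subunits POLA1 and POLD3 (0.45 and 0.34), the checkpoint adaptor CLSPN (0.57) and the flap nuclease FEN1 (0.25) rose with all arrays and were not called without Control 1. CCNE2 did not pass with all arrays, at 0.37 (0.294), and its change was larger without Control 1, at 0.81. PCNA, RRM2, TYMS and MCM5 gave 0.17, 0.14, 0.14 and 0.11 and did not pass. Of the 39 genes, 8 were called higher without Control 1, 21 higher and 1 lower without Control 2, 2 higher without NBD 1 and 3 higher without NBD 2, with medians of 0.23 to 0.25 in all 4 cases. With the actin difference as a covariate 2 were called, at a median of 0.25, and with array weights 0.

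Of 15 G1 cyclins, CDK inhibitors and related genes, 2 were higher, CDK2 and E2F2, and 0 lower. Of all genes 1.15% were higher, and the median of the list was 0.02. Among the 111 genes, CDK2 rose by 0.33 ± 0.06 (limma adjusted p = 0.0118), E2F2, a transcription factor of S phase entry, by 0.39 ± 0.06 (0.00494), and EXO1, a nuclease of mismatch repair, by 0.65 ± 0.08 (0.00186). EXO1 had 8.56 and 8.39 with NBD, against 7.86 and 7.80 with Control. The phosphatase CDC25A (0.45), the checkpoint kinase CHEK1 (0.53), the helicase BLM (0.37), WDR76 (0.61) and SLBP, which binds histone mRNA (0.33), were chosen from the 111 after their values were seen. Of 36 mitosis genes, 0 were called in either direction in T-ALL1, with a median of -0.03 and a range of -0.244 to 0.293. Over all genes 3.45% were called, so a list of that size would hold few calls at that share. In CEM, DND41, HPB-ALL and KOPT-K, 0 of the 39 replication genes were called, beside 1.13%, 2.47%, 0.783% and 1.28% of all genes in either direction, with medians of -0.05, -0.05, 0.04 and -0.06. The difference itself, the effect in T-ALL1 minus the mean effect in the other 4 lines, was called higher for 9 of the 39 genes, beside 0.66% of all genes. Without Control 1 this difference shrank for CDC6 (0.68 to 0.49), MCM6 (0.41 to 0.30), POLA1 (0.53 to 0.34) and RFC2 (0.50 to 0.37). It stayed alike or grew for the others called, MCM2 (0.40 to 0.40), MCM10 (0.57 to 0.56), CDC45 (0.37 to 0.41), GINS2 (0.52 to 0.67) and CCNE1 (0.87 to 0.91).

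**Figure D3:**
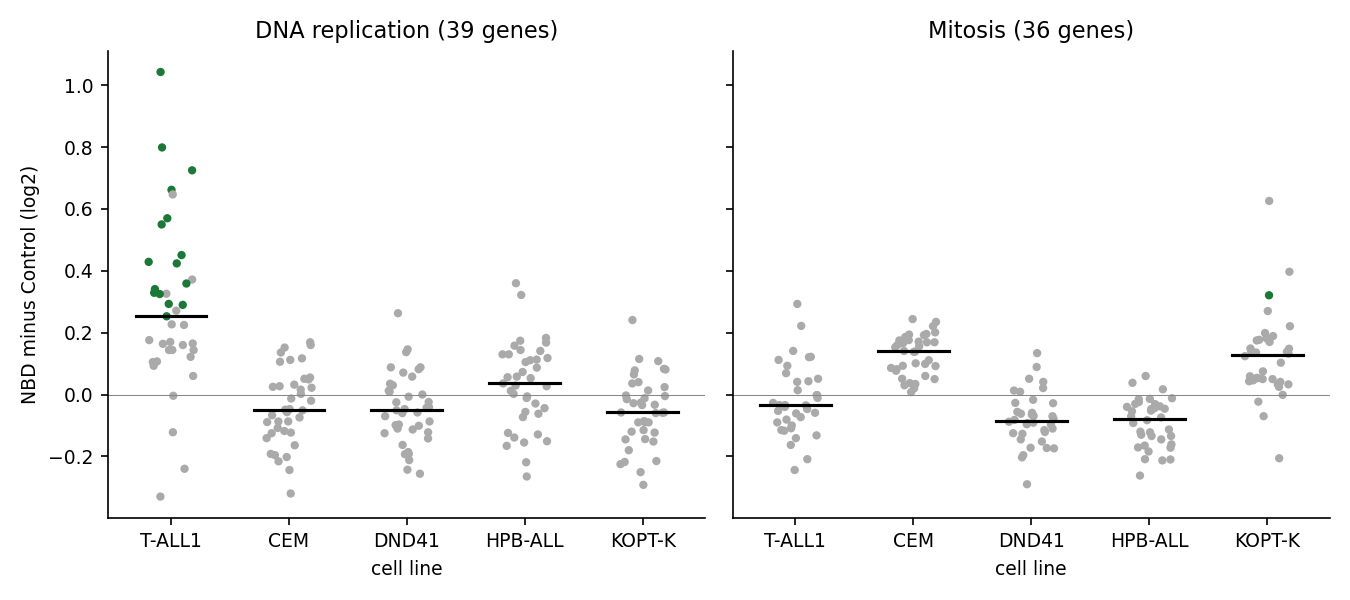
NBD minus Control (log2) of 39 DNA replication genes (left) and 36 mitosis genes (right) in each line, 1 point per gene, with the median as a bar and called genes in green. The replication genes centre on 0.25 in T-ALL1, with 16 called higher, and on -0.06 to 0.04 in the other 4 lines, with 0 called.

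E2F factors bind the promoters of many S phase genes, so the 250 bases before the start of each replication gene were searched on both strands for TTTNNCGC, where N is any base. The motif was found in 15 of the 34 list members with a RefSeq window (44.1%), in 3 of 30 mitosis genes (10%), in 8.44% of the 11028 tested genes with a window and in 5.93% of all 27305 windows. Of the 15 called replication genes with a window, 6 (40%) held it, a share like that of the whole list. The windows of MCM6 and of the 3 genes among the 7 that held without Control 1 and have a match, CDT1, GINS2 and DTL, are shown with the matches in capitals. MCM6 (chr2:135876444-135876693, minus strand) has overlapping matches at each of 2 places. CDT1 (chr16:88803539-88803788, plus strand) has 2 matches, which begin 213 and 35 bases before the start. GINS2 (chr16:85688955-85689204, minus strand) has 1 match, 31 bases before the start, and DTL (chr1:212035498-212035747, plus strand) 1 match, 8 bases before it. All are of GRCh38.p14, from RefSeq.
MCM6: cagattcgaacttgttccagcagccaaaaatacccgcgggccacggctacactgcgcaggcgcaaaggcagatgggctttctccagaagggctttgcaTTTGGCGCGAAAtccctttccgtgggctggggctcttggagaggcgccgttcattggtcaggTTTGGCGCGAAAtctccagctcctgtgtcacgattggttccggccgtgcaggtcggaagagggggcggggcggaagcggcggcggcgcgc
CDT1: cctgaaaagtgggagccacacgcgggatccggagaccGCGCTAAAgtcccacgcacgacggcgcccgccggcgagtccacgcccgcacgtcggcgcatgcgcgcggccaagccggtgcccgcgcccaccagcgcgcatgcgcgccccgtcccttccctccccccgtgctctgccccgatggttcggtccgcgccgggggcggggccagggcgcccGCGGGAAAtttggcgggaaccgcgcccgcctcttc
GINS2: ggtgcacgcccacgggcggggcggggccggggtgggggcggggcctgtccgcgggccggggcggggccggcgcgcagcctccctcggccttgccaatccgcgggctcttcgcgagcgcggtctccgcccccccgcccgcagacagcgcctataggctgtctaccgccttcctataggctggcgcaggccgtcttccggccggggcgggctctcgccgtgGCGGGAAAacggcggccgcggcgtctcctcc
DTL: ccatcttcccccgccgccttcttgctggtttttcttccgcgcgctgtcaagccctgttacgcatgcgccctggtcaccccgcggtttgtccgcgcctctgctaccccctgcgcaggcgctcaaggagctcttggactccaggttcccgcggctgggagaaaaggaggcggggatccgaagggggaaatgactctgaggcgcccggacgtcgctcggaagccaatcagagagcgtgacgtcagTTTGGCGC
A match describes letters in the window and is not evidence of binding.

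The transcription factors JUN and ATF3 were higher with NBD. JUN, a subunit of the AP-1 factor, had 9.38 and 9.34 with NBD, against 8.41 and 8.10 with Control. It rose by 1.11 ± 0.09 (2.15-fold, limma adjusted p = 7.01e-05), and by 1.26 without Control 1 (9.54e-06), and its 3 other probe sets gave 1.01 to 1.08 and passed. ATF3, a partner of JUN induced by stress, had 9.51 and 9.33 with NBD, against 8.34 and 8.76 with Control (0.87 ± 0.13, limma adjusted p = 0.00552). The 2 were the only called members of 13 AP-1 genes, and both held without Control 1. FOS and JUNB gave 0.20 and 0.18 and did not pass. Of 30 genes of the integrated stress response 3 rose and 0 fell, beside 1.15% of all genes higher, with a median of 0.19. The arginine transporter SLC7A1 rose by 0.52 ± 0.07 (limma adjusted p = 0.00213) and the transcription factor CEBPG by 0.46 ± 0.09 (0.0191), both also without Control 1, and the mitochondrial folate enzyme MTHFD2 by 0.34 ± 0.08 (0.0332). ATF4 and DDIT3, regulators at the head of that response, gave 0.17 and 0.04. PMAIP1, which encodes the death-promoting protein NOXA, had 12.25 and 12.16 with NBD, against 11.55 and 11.67 with Control. It rose by 0.60 ± 0.07 (limma adjusted p = 0.00132), as 1 of 26 apoptosis regulators, and its other probe set gave 0.33 (0.2).

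The other large increases that held were in genes of unrelated roles. TFAP2C, a developmental transcription factor, had 5.18 and 5.51 with NBD, against 4.67 and 3.28 with Control. It rose by 1.37 ± 0.30 (limma adjusted p = 0.0269), and its Control arrays lay farther apart than its NBD and nearer Control values. CD274, which encodes the immune checkpoint ligand PD-L1, had 5.23 and 5.28 with NBD, against 4.34 and 4.31 with Control (0.93 ± 0.16, limma adjusted p = 0.01), with Control values below the median level. RUBCNL, which takes part in autophagy, had 4.97 and 4.92 with NBD, against 4.02 and 4.11 with Control, all below that level (0.88 ± 0.09, limma adjusted p = 0.000447). MTA2, a subunit of a histone deacetylase complex, and VASH2, a tubulin-modifying enzyme, each rose by 0.79 (0.007 and 0.00215). The deubiquitinase USP44 and the interferon-stimulated gene USP18 rose by 0.66 (0.00851) and 0.62 (0.0421). The pseudogene RPL23AP53 rose by 0.70 (0.0369) and may share probes with its parent gene, and the antisense transcript ZSCAN16-AS1 rose by 0.61 (0.0266). The 2 other probe sets of ZSCAN16-AS1 gave -0.37 and -0.47. Other probe sets of TFAP2C (0.48), CD274 (0.02), RUBCNL (-0.01) and VASH2 (0.08 and 0.09) did not pass.

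Among the other large decreases that held, HOMER1, a scaffold protein of synapses and of T cell signalling, had 4.75 and 4.74 with NBD, against 6.24 and 6.13 with Control. It fell by 1.44 ± 0.12 (2.72-fold, limma adjusted p = 7.01e-05), and another probe set of it gave -0.09 (0.878). Both NBD values of HOMER1 lay below the median level of 5. ZNF322, a zinc finger protein, had 5.70 and 5.65 with NBD, against 7.13 and 6.76 with Control (-1.27 ± 0.11, limma adjusted p = 7.01e-05), and its other set gave 0.10. ZNF467, also a zinc finger protein, had 6.95 and 6.97 with NBD, against 8.44 and 7.85 with Control (-1.19 ± 0.15, limma adjusted p = 0.00186). CRIM1, a membrane protein that binds BMPs, had 3.91 and 4.64 with NBD, against 6.32 and 5.47 with Control (-1.62 ± 0.25, limma adjusted p = 0.00581), with its NBD values also below that level. The noncoding RNA FTX gave -1.55 (0.00767), with its other set at -0.05. PCDHGA4, a protocadherin, gave -1.48 (0.00832), NUDT13 -1.20 (0.00736), HCRP1 -1.15 (0.00115), the Fc receptor homologue FCRLB -1.05 (0.00454) and the antisense transcript TSPOAP1-AS1 -0.94 (0.004). Other probe sets of ZNF467 (0.16), CRIM1 (0.07 and -0.16), NUDT13 (0.09), HCRP1 (0.15) and TSPOAP1-AS1 (-0.19) did not pass. Over the 111 genes, 80 had another probe set, 160 sets in all. Of the 106 of these at or above the median level, 24 were called in the same direction and 76 had the same sign, and 0 of all 160 were called in the opposite direction.

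**Figure D4:**
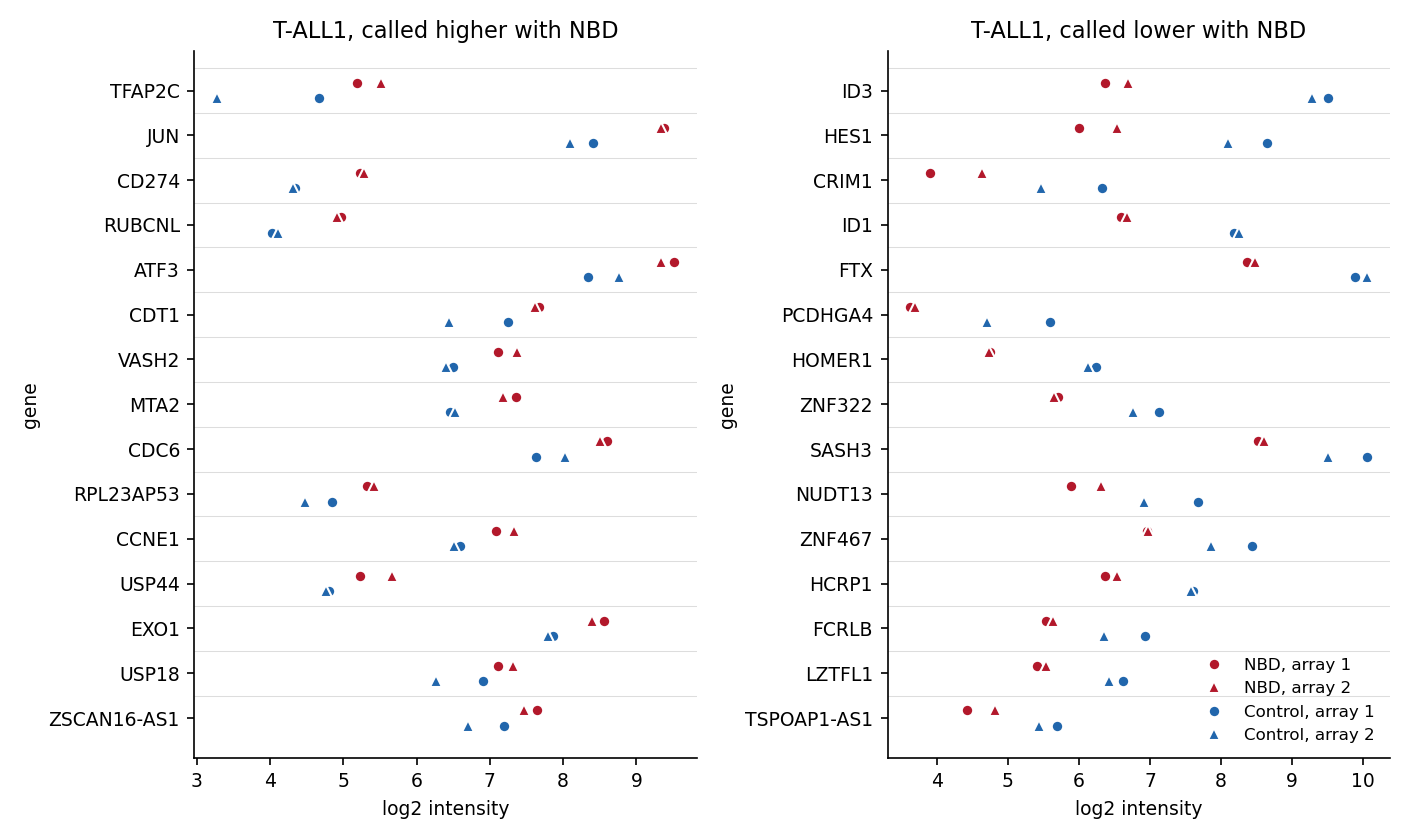
Log2 intensity on each T-ALL1 array of the 15 largest increases (left) and 15 largest decreases (right) among the 111 genes called with all arrays and without Control 1, with NBD in red and Control in blue. Circles are array 1 and triangles array 2. The NBD points of each gene lie on 1 side of its Control points, as in all called genes. TFAP2C has the Control arrays farthest apart, at 4.67 and 3.28.

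Of 33 T lineage genes, 3 were lower and 0 higher, beside 2.3% of all genes lower, with a median of -0.13. Without Control 1, 3 were lower and 1 higher, DNTT at 0.6 (0.0326), named after its values were seen, which adds bases at the joins of antigen receptor genes. SASH3, an adaptor of lymphocyte receptors, had 8.52 and 8.60 with NBD, against 10.05 and 9.50 with Control (-1.22 ± 0.14, limma adjusted p = 0.000875). CD3D, which belongs to the CD3 part of the antigen receptor, had 12.31 and 12.45 with NBD, against 12.90 and 12.92 with Control (-0.53 ± 0.07, limma adjusted p = 0.00193). LAT, the adaptor below that receptor, fell by 0.41 ± 0.07 (0.00767). All 3 held without Control 1. CD3E and CD3G, partners of CD3D, gave 0.26 and 0.18, and GATA3 and BCL11B, transcription factors of the lineage, -0.24 and 0.04. TRAF3IP3, a lymphocyte protein that binds a TNF receptor adaptor and was chosen after its values were seen, had 10.38 and 10.42 with NBD, against 11.00 and 10.99 with Control (-0.60 ± 0.06, limma adjusted p = 0.000212).

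Metallothioneins bind zinc and copper. Of 20 genes of their list 0 were called in T-ALL1, beside 3.45% of all genes, with a median of 0.12. MT2A had 11.28 and 11.41 with NBD, against 11.12 and 11.04 with Control, a change of 0.26 ± 0.09 (limma adjusted p = 0.13). It changed by 1.20, 0.41, 1.58 and 1.28 in CEM, DND41, HPB-ALL and KOPT-K, and the effect in T-ALL1 minus their mean was -0.85 ± 0.10 (limma adjusted p = 0.00217). MT1E gave 0.28 (0.0848) and, without Control 1, 0.40 (0.0349). Of 20 cholesterol synthesis genes 3 rose and 0 fell, beside 1.15% of all genes higher, with a median of 0.14. They were MVD (0.68, limma adjusted p = 0.0468), NSDHL (0.35, 0.0397) and ACAT2 (0.34, 0.0361), enzymes of the pathway or its entry, and none of the 3 held without Control 1. HMGCS1, the enzyme at the head of the pathway, gave 0.17 (0.291) with all arrays and 0.34 (0.0452) without Control 1, while a second, dimmer probe set of it was called with all arrays at 1.04 (limma adjusted p = 0.0214). SC5D and MSMO1 gave 0.41 (0.0239) and 0.53 (0.0138) without Control 1 and did not pass with all arrays. Of 33 interferon-stimulated genes 2 rose, OAS3 (0.50) and USP18, and 1 fell, IFI35 (-0.56). The 18 NRF2 targets held 3 increases, SRXN1, SLC7A11 and TKT (0.60, 0.52 and 0.29), of which TKT held without Control 1. No gene was called among 30 cytosolic ribosomal proteins, 36 respiratory chain subunits, 29 proteasome subunits or 26 MYC and ribosome biogenesis genes, with medians of -0.01, -0.07, -0.03 and 0.03. Over all genes tested, 3.45% were called in either direction.

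The genes called with all arrays but not without Control 1 included the largest noncoding changes. LINC00597 had 4.03 and 4.54 with NBD, against 6.58 and 5.93 with Control (-1.96, limma adjusted p = 0.00811, 0.0624 without Control 1). LOC145474 gave -1.66 (0.0417), RUNX1-IT1 -1.56 (0.018) and SDCBP2-AS1 -1.40 (0.021). Of 910 long noncoding RNAs tested, 45 (4.95%) were lower and 4 higher, while of 12575 protein-coding genes 264 (2.1%) were lower and 150 higher. Of those 45, 5 held without Control 1. Among the increases, ATAD2, a chromatin reader, had 10.08 and 9.93 with NBD, against 8.63 and 9.47 with Control (0.96, limma adjusted p = 0.0239, 0.0982 without Control 1). ITCH, a ubiquitin ligase, gave 0.94 (0.0459), and M6PR, a receptor of lysosomal enzymes, 0.87 (0.0266). The chaperone HSP90B1 gave 0.75 (0.046) and HERPUD1 0.30 (0.0397), the called members of 22 endoplasmic reticulum chaperones and stress genes. ABCG1 (-0.88), KLF10 (-0.66), TP53INP1 (-0.52), SELENOH (-0.35), HK2 (0.31) and KLF2 (0.68) were called and likewise did not hold, while the selenoprotein GPX1 (-0.53) did. For each of ORC1, ATAD2, ITCH, M6PR and HSP90B1, Control 1 was the lowest of the 4 arrays.

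The test of the difference asks which effects in T-ALL1 differ from those in the other lines. A difference that is not called does not show a shared effect, and the T-ALL1 Control arrays enter each difference. The T-ALL1 effect exceeded the mean effect of the other 4 lines in 91 genes (0.66%) and lay below it in 137 (0.994%), by limma at an adjusted p of 0.05, 228 (1.65%) in all. Of the 111 genes that held, 25 of the 45 higher and 36 of the 66 lower genes were called in this test in the same direction. ID1 and JUN were not: ID1 fell by 1.58 in T-ALL1 beside a mean of -1.41 elsewhere (difference -0.17, limma adjusted p = 0.641), and JUN rose by 1.11 beside 1.39 (-0.29, 0.167). Against KOPT-K alone, whose values share the number form of T-ALL1 and so seem to come from the same normalization, 33 genes were called above (0.239%) and 89 below (0.646%), and the JUN difference was -2.24 (limma adjusted p = 1.72e-06), since it rose by 3.35 there. LZTFL1, NOTCH1, NOTCH3, CD3D and GPX1 passed neither against the mean of the other lines, with differences of -0.15, -0.15, 0.08, -0.10 and -0.04, nor against KOPT-K. ATF3 differed by 0.03 from that mean (0.931), but by -1.07 from KOPT-K (limma adjusted p = 0.0207). It changed by 1.95 in KOPT-K and by 0.41, 0.48 and 0.53 in CEM, DND41 and HPB-ALL, where it did not pass.

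ID3 and HES1 fell further in T-ALL1 than in the mean of the other lines. The ID3 difference was -1.74 ± 0.12 (limma adjusted p = 2.89e-05), from changes of -2.86 in T-ALL1 and -2.31, -0.71, -0.06 and -1.41 in CEM, DND41, HPB-ALL and KOPT-K. The HES1 difference was -1.26 ± 0.25 (0.0246), beside a mean of -0.84 in the other lines, and it was not called without Control 1 (0.119). HES1 was also called lower in DND41 (-1.03, 0.0284) and KOPT-K (-1.21, 0.0168), and its difference from KOPT-K alone was -0.89 (0.218), while that of ID3 was -1.45 (0.000896). HOMER1 (-1.41, 0.000725), ZNF322 (-1.17, 0.00091), CRIM1 (-1.89, 0.00625) and FTX (-1.77, 0.00784) fell in T-ALL1 beside mean changes of -0.10 to 0.27 in the other lines. CCNE1 (0.87, 0.00126), RUBCNL (0.91, 0.00126), MCM10 (0.57, 0.00305) and EXO1 (0.62, 0.00658) lay above the others. CR2, a Notch target in T-ALL, differed by 1.09 (0.00681), with changes of -1.34 and -1.17 in HPB-ALL and KOPT-K, and was 4.40 and 4.57 with NBD, against 4.10 and 4.25 with Control in T-ALL1, all below the median level. NFKBIA differed by -0.39 (0.041), since it changed by 0.50, 0.50, 0.16 and 0.46 in the other lines and by 0.01 in T-ALL1.

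**Figure D5:**
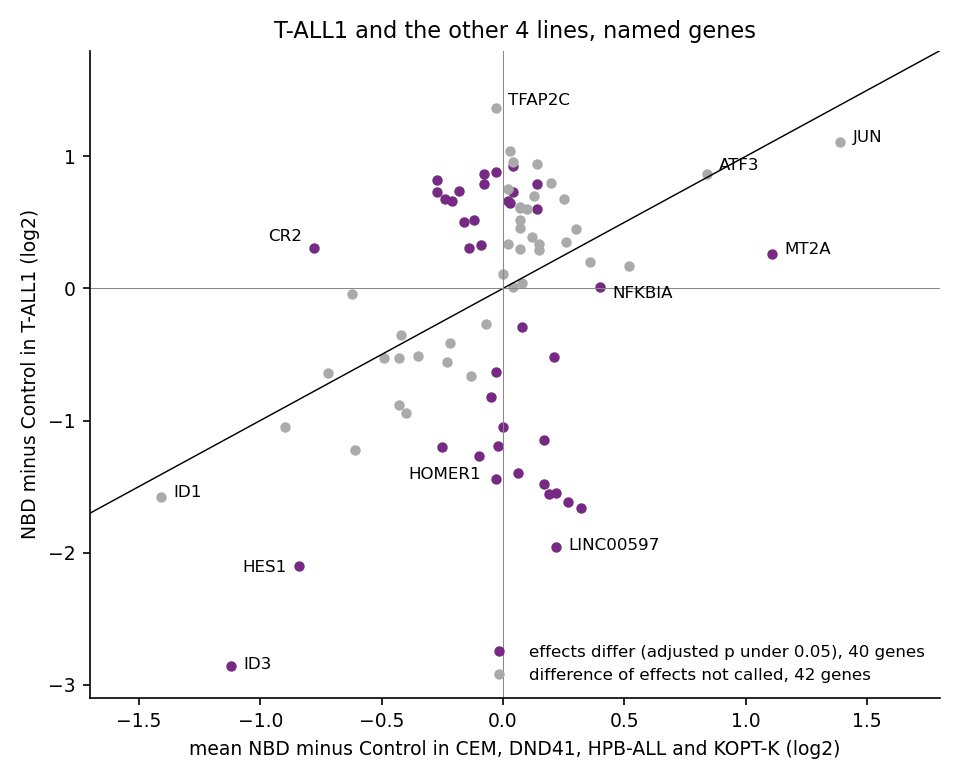
NBD minus Control (log2) in T-ALL1, on the vertical axis, against the mean of CEM, DND41, HPB-ALL and KOPT-K, on the horizontal axis, for the 82 genes named by rule, with the line of equal effect. Purple points are the 40 genes whose effects differ in the limma test and grey points the 42 others. ID1, ATF3 and JUN lie near the line, and ID3 (-2.86), HES1 (-2.10) and HOMER1 (-1.44) below it.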

How the data were processed

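Transcripts were measured on Affymetrix arrays from 20 ng of total RNA amplified in a pair of cycles, per the labels' protocols. For 54675 probe sets the authors deposited an intensity on a linear scale from each array, made with RMA (robust multi-array average) per the submitters' processing notes; the version is not given in the sources used here. Values were deposited with 7 decimals for T-ALL1 and KOPT-K and with 2 for the other lines, so 2 normalization runs seem likely. An array has no read depth, and the number of arrays limits the precision.

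The deposited intensities were taken to log2 with no pseudocount. Of the probe sets, 41097 had 1 gene in the platform table, 1801 several and 11777 none, 62 control sets among the last; 41043 of the named ones were found in the GRCh38.p14 gene table. Each of 19775 genes was read by the probe set of highest mean, and 13787 with 2 or more arrays at or above the median deposited value (31.96, log2 5) were tested. limma 3.58.1 in R 4.3.3 (lmFit, eBayes) gave 1 mean per group for 10 groups, with 10 residual and 3.42 prior degrees of freedom and Benjamini-Hochberg adjustment at 0.05. Summaries were made with Python 3.11.15 and pandas 2.3.3. The procedure was tested on simulated data in which each gene had the same spread in every group. That does not cover the larger spread of T-ALL1 Control. Every difference is NBD minus Control.

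The members, gene lists and named genes were chosen with earlier results of these data known. Named were the 15 largest changes in each direction among called genes that held without Control 1, the 4 largest among those that did not, the 5 largest against the other 4 lines, up to 4 called members of each list and a fixed set of 14 genes, 82 in all. Deviations of same-numbered arrays from their group means correlated at -0.281 in T-ALL1 and at -0.181 to 0.143 in the other lines, so the numbers were not taken to pair the arrays. A few list members and 1 planned control set are left unreported.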

Additional observations from a re-analysis of the deposited data

Results flagged for a closer look

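For 40 of the 82 genes named by rule, the NBD effect in T-ALL1 differed from the mean effect in CEM, DND41, HPB-ALL and KOPT-K in the limma test of the difference itself (adjusted p under 0.05, log2 units, 2 arrays per line and peptide). Effects that lay above those of the other lines included cell cycle genes, CCNE1 at 0.87, CDC6 at 0.68, EXO1 at 0.62 and CDK2 at 0.42. Surface and signalling genes among them were CR2 at 1.09, CD274 at 0.89, SMAGP at 1, M6PR at 0.95 and the transporter SLC7A1 at 0.64. The others were BIN1 at 1.08, KLF2 and GPATCH4 at 0.92, RUBCNL at 0.91, MTA2 at 0.87, OAS3 at 0.66, USP44 and VASH2 at 0.64, PMAIP1 at 0.46 and HK2 at 0.45. BIN1 had 6.68 and 6.37 with NBD, against 5.64 and 5.78 with Control, while its 4 other probe sets gave -0.30 to 0.44 and did not pass.

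Effects that lay below those of the other lines included 5 noncoding RNAs, LINC00597 at -2.18, LOC145474 at -1.99, FTX at -1.77, RUNX1-IT1 at -1.76 and SDCBP2-AS1 at -1.45. Regulators of transcription among them were ID3 at -1.74, HES1 at -1.26, ZNF322 and ZNF467 at -1.17, SMAD6 at -0.77, TP53INP1 at -0.73 and TCF3 at -0.37. Surface and adhesion genes were CRIM1 at -1.89, PCDHGA4 at -1.66, FCRLB at -1.05 and CXCR4 at -0.60. The others were HOMER1 at -1.41, HCRP1 at -1.32, NUDT13 at -0.95, MT2A at -0.85 and NFKBIA at -0.39. MT2A and NFKBIA changed by 0.26 and 0.01 in T-ALL1 and did not pass there. Without Control 1, 16 of the 40 were no longer called in this test, HES1, CDC6 and LINC00597 among them. The T-ALL1 Control arrays with their high actin differences enter every one of these values, and their part was not tested.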

How the results depend on the processing

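Leaving out 1 array at a time, over all 20 arrays, moved the genes called in T-ALL1 between 17 and 1195 higher and between 23 and 1921 lower. Without Control 2 the counts were 1195 and 1921; Control 1 then stands alone for its group, and the cause of the rise was not tested. Without Control 1 they were 97 and 78, without NBD 1 17 and 23 and without NBD 2 56 and 177. Leaving out 1 array of CEM NBD, DND41 Control, HPB-ALL Control or HPB-ALL NBD gave 91 to 97 higher genes, and of HPB-ALL 208 or 209 lower ones. The counts against the other 4 lines ran from 15 to 1095 higher and from 20 to 1394 lower, with 148 and 274 without KOPT-K Control 2. Those against KOPT-K ran from 9 to 784 higher and from 30 to 1074 lower, with 69 and 255 without KOPT-K Control 2. The actin difference ran from -2.13 to -1.02.

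In the counts that follow, higher genes come before lower ones. With T-ALL1 and KOPT-K arrays alone, 2 and 7 genes were called in T-ALL1 and 0 and 1 against KOPT-K, and with T-ALL1 arrays alone 0 and 0. With array weights the counts were 2 and 11, 0 and 2 against the other lines, and 3 and 18 against KOPT-K. With the actin covariate they were 30 and 19, 9 and 6 against the other lines, and 13 and 12 against KOPT-K. A trended, robust prior gave 272 and 520, 203 and 269 against the other lines, and 152 lower against KOPT-K. Without a filter 77 and 186 were called, and 19 and 50 against KOPT-K. The mean of all probe sets gave 320 higher, and 150 against the other lines, and median centring gave 101 higher. Quantile normalization and the other choices of probe set or filter moved no count past 1.5 times. The actin difference was -0.53 with the middle probe set in place of the 5' set, and the GAPDH sets gave -0.33.

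With the replicate number as a replicate block, 20 and 56 genes were called in T-ALL1, 17 and 41 against the other lines and 6 and 24 against KOPT-K. The numbers pair nothing in the labels, and the deviations of same-numbered arrays correlated at -0.281 in T-ALL1. With the numbers crossed in lines where that correlation was below -0.1, an alternative chosen after seeing the data, 135 and 380 genes were called.

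Among the 72 named genes called in T-ALL1, the direction turned with the actin covariate for ORC1 (-0.35), ATAD2 (-0.26), ITCH (-0.52), M6PR (-0.19), HSP90B1 (-0.34) and GPATCH4 (-0.17). It turned with the mean of all probe sets for HK2 (-0.14), SMAD6 (0.01) and ZSCAN16-AS1 (-0.07), and for ZSCAN16-AS1 with the probe set highest in T-ALL1 (-0.37). The causes were not tested. The low signal of dim genes such as CR2, RUBCNL and PCDHGA4 and the number of arrays limit the precision.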
